A study of Mus musculus with 4 samples.

Results

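Ribosome biogenesis and nucleolar factors are the proteins that transcribe, modify, cut and package ribosomal RNA. The list held 43 mouse genes, and a gene was measured by the row of the array annotated with its symbol alone, or by the row with the highest mean where there were several. Of these genes 42 had such a row, and only Noc2l had none. All 42 passed the filter on dim genes, 40 of them above the array's median on every array (not Nol10 and Rrs1), so they made up 42 of the 10699 genes tested, out of 19752 with a row of their own. By role they were 6 core proteins of small nucleolar ribonucleoproteins (snoRNPs), 3 subunits of RNA polymerase I, 16 factors of small subunit assembly, 12 of large subunit assembly and 5 nucleolar scaffold or regulatory proteins.

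RNA came from splenic CD4+ T cells of male C57BL/6 mice aged 6 weeks, taken by negative selection and activated for 48 h with beads against CD3 and CD28. The baseline group (2 arrays) was labelled untreated, and 1 array each held activated cells cultured with interferon alpha (IFNa, 100 U/ml) for 2 h or for 8 h. All 4 arrays thus held bead-activated cells of wild-type background, and activated cells kept for 2 h or 8 h without IFNa were not analysed here, so the effects of IFNa and of further culture cannot be told apart. The labels do not say whether the baseline arrays came from separate mice or cultures, the preparation label of the IFNa samples mentions JAK inhibitors as present or absent, and p-values rest on the spread between the 2 baseline arrays, which may be technical.

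Ribosomes are built in the nucleolus. RNA polymerase I makes a long precursor RNA, snoRNPs guide its chemical modification and cleavage, and large sets of assembly factors, among them helicases and GTPases, fold it with ribosomal proteins into the small and the large subunit. T cells enlarge their nucleoli after activation, when growth before division calls for new ribosomes, and the transcription factor Myc is known to drive many of the genes involved.

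Values are log2 of the deposited intensity, each difference is on that log2 scale. The number of arrays limits the precision. Array medians lay between 176 and 199 and 75th percentiles between 574 and 769 on the intensity scale, lowest at 8 h for the latter, so the arrays did not share 1 distribution. The median gene differed from baseline by 0.06 at 2 h (-0.01 after quantile normalization) and by -0.16 at 8 h (-0.002 after it), and shifts of the list are given beside these. The IFNa label was checked on Ifit3 (log2 difference 3.27 at 2 h and 3.53 at 8 h), Irf7 (3.15 and 3.23) and Usp18 (3.22 and 3.02). All 8 CD4+ T cell markers lay above the array's median on every array. Of other cell types, B cell markers were also above it (5 of 5 with a row on every array), with intensities that summed to 2456 and 2445 for the baseline group, 2294 for 2 h and 3033 for 8 h. Natural killer and dendritic cell markers did not exceed the median on any array (0 of 4 each), 1 to 2 of 2 CD8+ T cell and 1 to 2 of 6 myeloid markers did, and the only erythroid marker with a row, Slc4a1, did at 8 h. The part of these levels in the results below was not tested.

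At 8 h of IFNa the ribosome biogenesis genes were low as a group. Of the 42 genes 18 fell and none rose (limma, adjusted p under 0.05), while 3.35% of all genes tested fell and 0.654% rose. All 42 lay below the baseline mean, as did 67.4% of all genes, although Wdr12 turned to 0.023 after quantile normalization. Their differences ran from -1.55 for Gnl3 to -0.10 for Npm1, with a median of -0.89, which is -0.725 relative to the median gene, and -0.69 relative to it after quantile normalization. A fall of at least 1.5-fold was seen in 32 of the 42 genes, against 13.7% of all genes. The list was chosen with earlier results of these data known, so these shares describe it and are not independent support. In these bulk samples less RNA per cell and fewer cells that express the genes cannot be told apart.

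The 8 h array lay below both baseline arrays for 40 of the 42 genes, against 55.9% of all genes, and above both for none, against 24.4%. With the rows used, the exceptions were Polr1c and Nob1, whose 8 h values lay between the baseline arrays. The other rows of Fbl and Ddx18, described further down, also gave 8 h values between them. By their 8 h difference 21 of the 42 genes were among the lowest 5% of all genes tested, 32 among the lowest 10% and 36 among the lowest 25%. The count of falls depended on the setting. It was 25 after quantile normalization, when 8.42% of all genes were called lower, and 29 with arrays centred on their medians, when 6.77% were. It was 10 with a stricter filter, against 2.36% of the genes then tested, and 4 with no filter on dim genes (Gnl3, Nol10, Rrp1b and Polr1b), against 0.511%.

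**Figure D1:**
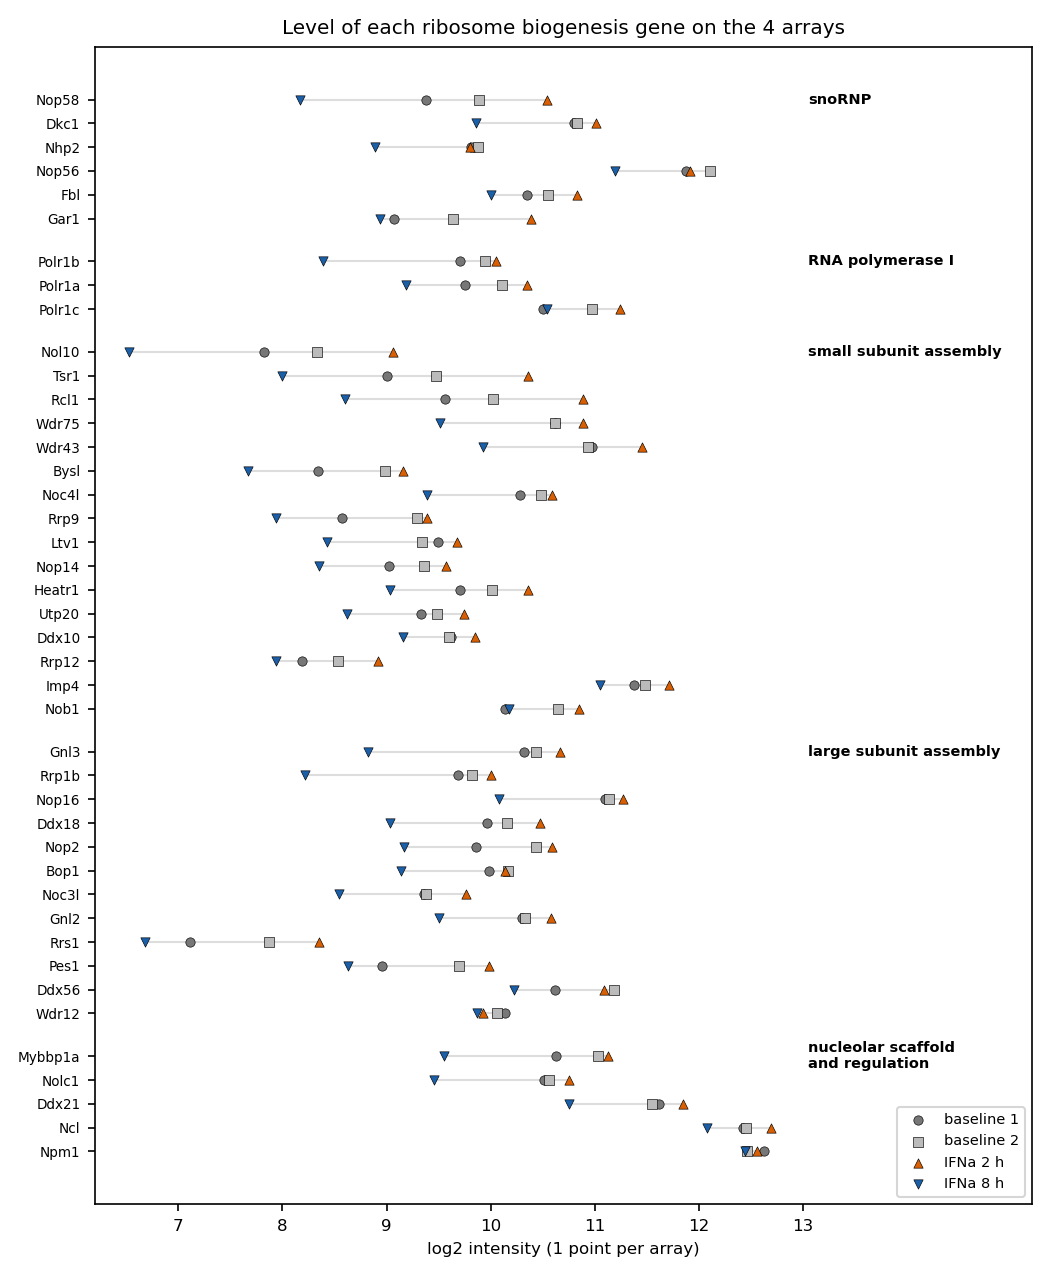
Log2 intensity of each of the 42 genes on the 4 arrays (1 point per array), grouped by role and ordered within a role by the 8 h difference. The 8 h point lies below both baseline points for 40 genes, and the 2 h point above both for 36.

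Gnl3 (nucleostemin), a nucleolar GTPase of large subunit assembly, had the largest fall of the list on the deposited scale. It stood at 10.32 and 10.43 at baseline, 10.66 after 2 h and 8.82 after 8 h. The 8 h array was thus far below the other 3, and the fall was 2.93-fold (-1.55, SE 0.20, adjusted p = 0.00802, limma, 1 array against 2).

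Nol10, a WD-repeat factor of the small subunit processome, the early particle that cleaves the precursor RNA, stood at 7.82 and 8.33 at baseline, 9.06 after 2 h and 6.52 after 8 h. It fell by 1.55 on the log2 scale at 8 h (SE 0.25, adjusted p = 0.0194). Its 8 h intensity of 92.1 lay below that array's median, so the size of the fall rests on a dim value. Its baseline arrays were 0.51 apart, less than the size of the fall, and neither IFNa array lay between them. Rrp1b, a nucleolar protein of large subunit assembly, stood at 9.69 and 9.82 at baseline, 10.0032 after 2 h and 8.22 after 8 h, and fell by 1.54 (SE 0.20, adjusted p = 0.00825).

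Among the snoRNP proteins, 3 of 6 fell at 8 h, with a median of -0.88 and a range from -1.46 to -0.42. In the box C/D particles, which guide ribose methylation, Nop58 and Nop56 form the paired scaffold and Fbl (fibrillarin) is the methyltransferase. Nop58 stood at 9.38 and 9.89 at baseline, 10.54 after 2 h and 8.17 after 8 h, and fell by 1.46 (SE 0.25, adjusted p = 0.0227). Nop56 stood at 11.87 and 12.11 at baseline, 11.92 after 2 h and 11.19 after 8 h, a difference of -0.80 that did not pass (SE 0.21, adjusted p = 0.0742). Fbl stood at 10.35 and 10.55 at baseline, 10.83 after 2 h and 9.9999 after 8 h (-0.45, SE 0.21, adjusted p = 0.227), and it was measured by 2 rows that differed, as given further down. All 3 partners were lowest at 8 h with the row used, and differences between them were not tested.

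The box H/ACA particles guide pseudouridylation, and Dkc1 (dyskerin) is their enzyme. Dkc1 stood at 10.80 and 10.83 at baseline, 11.02 after 2 h and 9.86 after 8 h, and fell 1.94-fold (-0.96, SE 0.20, adjusted p = 0.0410). Nhp2, an RNA-binding subunit, fell by a like amount (-0.95, SE 0.20, adjusted p = 0.0416), from 9.81 and 9.88 at baseline and 9.80 at 2 h to 8.89 at 8 h. Gar1, the remaining subunit measured, stood at 9.08 and 9.64 at baseline, 10.39 after 2 h and 8.94 after 8 h. Its high value was at 2 h, and its 8 h difference of -0.42 did not pass (SE 0.26, adjusted p = 0.347).

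RNA polymerase I was represented by 3 subunits, of which 1 fell at 8 h. Polr1b, which forms the catalytic centre together with Polr1a, stood at 9.71 and 9.95 at baseline, 10.06 after 2 h and 8.39 after 8 h, and fell 2.70-fold (-1.44, SE 0.21, adjusted p = 0.0135). Polr1a, the largest subunit, stood at 9.75 and 10.11 at baseline, 10.35 after 2 h and 9.19 after 8 h (-0.74, SE 0.23, adjusted p = 0.104). Polr1c, which is shared with RNA polymerase III, stood at 10.50 and 10.97 at baseline, 11.25 after 2 h and 10.54 after 8 h (-0.20, SE 0.24, adjusted p = 0.649). Its 8 h value lay inside the baseline range. Differences between the 3 subunits were not tested.

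Of the 16 small subunit factors 7 fell at 8 h, with a median of -0.99 and a range from -1.55 to -0.21. Besides Nol10 these were Tsr1, Rcl1, Wdr75, Wdr43, Noc4l and Ltv1. Tsr1, a GTPase-like protein of the maturing small subunit, stood at 9.0001 and 9.48 at baseline, 10.36 after 2 h and 8.00 after 8 h, and fell by 1.24 (SE 0.25, adjusted p = 0.0357). Rcl1, which acts in the processome on the precursor RNA, stood at 9.56 and 10.02 at baseline, 10.89 after 2 h and 8.60 after 8 h, and fell by 1.19 (SE 0.24, adjusted p = 0.0383). Both had their highest value at 2 h and their lowest at 8 h.

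Wdr43, Wdr75 and Heatr1 belong to the group of factors that first bind the precursor RNA. Wdr75 gave 10.61 and 10.62 at baseline, 10.89 after 2 h and 9.52 after 8 h, and fell by 1.10 (SE 0.20, adjusted p = 0.0278). Wdr43 gave 10.97 and 10.94 at baseline, 11.45 after 2 h and 9.92 after 8 h, and fell by 1.03 (SE 0.20, adjusted p = 0.0335). For these 2 genes the baseline arrays almost coincided. Heatr1 gave 9.71 and 10.01 at baseline, 10.36 after 2 h and 9.03 after 8 h, and its difference of -0.82 did not pass (SE 0.22, adjusted p = 0.0749).

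Noc4l, which forms a complex with Nop14, stood at 10.28 and 10.49 at baseline, 10.59 after 2 h and 9.39 after 8 h, and fell by 0.99 (SE 0.21, adjusted p = 0.0414). Nop14 itself had a difference of -0.84 (SE 0.22, adjusted p = 0.0744). Ltv1, a late factor carried with the small subunit to the cytoplasm, stood at 9.49 and 9.34 at baseline, 9.68 after 2 h and 8.43 after 8 h, and fell by 0.99 (SE 0.21, adjusted p = 0.0407). In all 9 small subunit factors, Heatr1 and Nop14 included, did not pass at 8 h. Among them Bysl (-0.996, SE 0.28), a late assembly factor, and Rrp9 (-0.99, SE 0.29), a protein of the U3 snoRNP, had differences as large as that of Ltv1, but their baseline arrays were 0.65 and 0.72 apart. Utp20 stood at -0.78, Ddx10 at -0.45, Rrp12 at -0.42, Imp4 at -0.38 and Nob1, the endonuclease of the last cleavage, at -0.21.

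Of the 12 large subunit factors measured 5 fell at 8 h, with a median of -0.88 and a range from -1.55 to -0.22. With Gnl3 and Rrp1b these were Nop16, Ddx18 and Bop1. Nop16 stood at 11.10 and 11.13 at baseline, 11.27 after 2 h and 10.08 after 8 h, and fell by 1.03 (SE 0.20, adjusted p = 0.0333). Bop1, Pes1 and Wdr12 together form a complex needed to process the RNA of the large subunit. Bop1 gave 9.98 and 10.17 at baseline, 10.14 after 2 h and 9.14 after 8 h, and fell by 0.93 (SE 0.21, adjusted p = 0.0479), the adjusted p closest to the threshold among the falls. Pes1 gave 8.96 and 9.70 at baseline, 9.99 after 2 h and 8.63 after 8 h (-0.70, SE 0.30, adjusted p = 0.193), and its wide baseline gap leaves its 8 h value only a little below the lower baseline array. Wdr12 stood at -0.22 (SE 0.20, adjusted p = 0.514).

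The other large subunit factors lay between -0.98 and -0.67 at 8 h and did not pass. Nop2, a methyltransferase of ribosomal RNA, stood at -0.98 (SE 0.26, adjusted p = 0.0764). Noc3l (-0.83, SE 0.20, adjusted p = 0.0594) and the GTPase Gnl2 (-0.81, SE 0.20, adjusted p = 0.0622) just missed the threshold. Rrs1, whose baseline arrays were 0.76 apart, stood at -0.81 (SE 0.30, adjusted p = 0.158) and the helicase Ddx56 at -0.67 (SE 0.26, adjusted p = 0.168). The 8 h value of Rrs1 was dim, below that array's median.

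Of the 5 scaffold and regulatory proteins 2 fell at 8 h. Mybbp1a, a nucleolar protein that binds transcription factors, stood at 10.63 and 11.03 at baseline, 11.13 after 2 h and 9.55 after 8 h, and fell by 1.27 (SE 0.23, adjusted p = 0.0279). Nolc1, a chaperone of snoRNPs, stood at 10.51 and 10.56 at baseline, 10.75 after 2 h and 9.45 after 8 h, and fell by 1.09 (SE 0.20, adjusted p = 0.0288). Ddx21, an RNA helicase, stood at 11.61 and 11.55 at baseline, 11.85 after 2 h and 10.76 after 8 h (-0.83, SE 0.20, adjusted p = 0.0602). The abundant nucleolar proteins Ncl and Npm1 did not pass. Ncl (nucleolin) stood at -0.35 (SE 0.20, adjusted p = 0.306) and Npm1 (nucleophosmin) at -0.10 (SE 0.21, adjusted p = 0.795), with Npm1 at 12.63 and 12.47 at baseline, 12.56 after 2 h and 12.45 after 8 h. A further 3 rows of the array were annotated with Npm1 and a predicted gene together, and were not used.

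**Figure D2:**
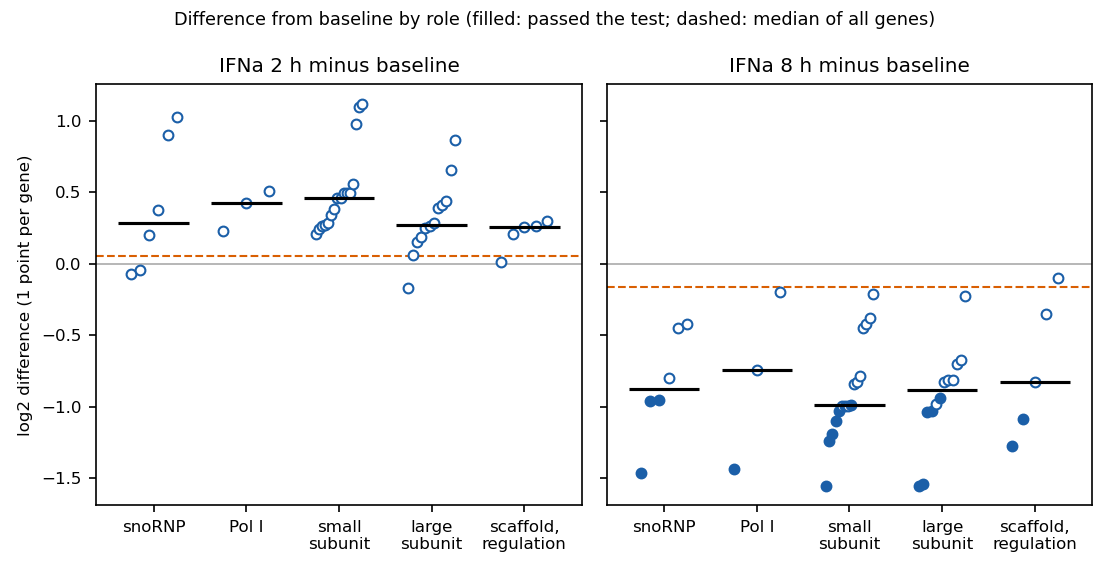
Log2 difference of each gene from its baseline mean, in a panel for 2 h and a panel for 8 h, by role (1 point per gene; filled points passed the test, black bars are medians over a role, the dashed line is the median of all genes tested). At 8 h all 42 points lie below 0 on the deposited scale (Wdr12 turns to 0.023 after quantile normalization) and 18 are filled, while at 2 h none is filled.

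The role medians at 8 h lay between -0.99 for small subunit factors and -0.74 for RNA polymerase I, and the ranges of all roles overlapped. After quantile normalization they lay between -0.75 and -0.47, with the same roles at the ends. Differences between roles were not tested, since genes are not replicates.

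The sequence upstream of the start site is shown for the 5 genes with the largest 8 h falls, as the place where transcription factors could act on genes that move together. Each line gives the 150 bases before the RefSeq start, 5′ to 3′ on the gene's strand, build GRCm38.p6, with the motif GGGCGG (either strand, so also CCGCCC) in capitals; for Rrp1b the first of its listed starts is shown.
Gnl3 (chr14:31019132-31019281, minus strand): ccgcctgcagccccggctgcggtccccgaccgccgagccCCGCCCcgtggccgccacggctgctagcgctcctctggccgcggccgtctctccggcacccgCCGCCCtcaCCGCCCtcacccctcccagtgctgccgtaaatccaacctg
Nol10 (chr12:17348343-17348492, plus strand): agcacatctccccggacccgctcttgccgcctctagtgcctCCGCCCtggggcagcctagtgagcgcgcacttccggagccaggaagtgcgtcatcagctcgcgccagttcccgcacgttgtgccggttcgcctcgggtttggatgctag
Rrp1b (chr17:32036012-32036161, plus strand): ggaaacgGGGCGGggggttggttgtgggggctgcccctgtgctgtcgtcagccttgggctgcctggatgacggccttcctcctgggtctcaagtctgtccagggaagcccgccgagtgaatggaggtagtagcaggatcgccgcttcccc
Nop58 (chr1:59684856-59685005, plus strand): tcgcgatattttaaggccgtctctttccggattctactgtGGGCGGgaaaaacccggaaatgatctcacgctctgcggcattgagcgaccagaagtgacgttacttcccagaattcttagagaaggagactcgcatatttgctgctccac
Polr1b (chr2:129100846-129100995, plus strand): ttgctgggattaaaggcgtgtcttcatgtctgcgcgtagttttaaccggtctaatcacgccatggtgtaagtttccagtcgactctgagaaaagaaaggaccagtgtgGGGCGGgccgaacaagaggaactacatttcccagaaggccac
A start window of 250 bases before to 50 after the start was found for 37 of the 43 genes (not for Bop1, Rrs1, Npm1, Rrp12, Fbl and Gnl2). The GGGCGG motif, the core of a GC box, lay in 75.6% of their 41 windows, 62.7% of the windows of all genes tested and 35.7% of all windows. The motif GAAA, any 2 bases, GAAA (either strand) is the core of an interferon-stimulated response element. Among the members it lay in the window of Nol10 alone (2.44% of windows). It lay in 2.99% of the windows of all genes tested and 3.44% of all windows. These are letter matches and not measured binding.

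The motif CACGTG, an E-box that Myc and related factors can bind, was also searched because Myc is a known regulator of such genes. It reads the same on both strands. It was found in 8 of the 41 windows (19.5%), against 10.1% of the windows of the genes tested and 7.15% of all windows. The 8 matches are shown in capitals within 30 bases of the gene's strand, build GRCm38.p6.
Imp4 (chr1:34439696-34439725, plus strand): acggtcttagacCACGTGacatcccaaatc
Nop2 (chr6:125131811-125131840, plus strand): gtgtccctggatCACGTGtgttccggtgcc
Pes1 (chr11:3963965-3963994, plus strand): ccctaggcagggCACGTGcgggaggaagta
Wdr43 (chr17:71616220-71616249, plus strand): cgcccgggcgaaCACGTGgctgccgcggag
Tsr1 (chr11:74898092-74898121, plus strand): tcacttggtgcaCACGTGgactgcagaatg
Ltv1 (chr10:13193092-13193121, minus strand): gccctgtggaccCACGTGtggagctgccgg
Utp20 (chr10:88826765-88826794, minus strand): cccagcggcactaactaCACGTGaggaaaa
Mybbp1a (chr11:72441347-72441376, plus strand): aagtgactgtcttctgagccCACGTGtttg
It began 121 bases before the start in Imp4 and 60 before it in Nop2, and in the other 6 between 2 bases (Pes1) and 40 bases (Mybbp1a) after the start. The genes with a match included 4 that fell at 8 h (Wdr43, Tsr1, Ltv1 and Mybbp1a) and 4 that did not pass. In the whole list 18 of 42 genes fell (42.9%), and a relation of the motif to the falls was not tested. None of the 5 largest falls had a match in the window, which says only that these letters are not in it.

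Myc stood at 11.88 and 12.05 at baseline, 11.94 after 2 h and 10.77 after 8 h. It fell at 8 h (-1.20, SE 0.21, adjusted p = 0.0232) and was near baseline at 2 h (-0.03, SE 0.21, adjusted p = 0.969).

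At 2 h the list lay a little above baseline, with no gene past the test. None of the 42 was called in either direction (limma, adjusted p under 0.05; 8 higher and none lower at an unadjusted p under 0.05, as were 1001 and 297 of all genes), while 1.09% of all genes were called higher and 0.00935% lower. The median difference was 0.32, or 0.27 relative to the median gene, and 0.21 relative to it after quantile normalization. Differences ran from -0.17 for Wdr12 to 1.12 for Tsr1. The 2 h array lay above both baseline arrays for 36 of the 42 genes, against 44.5% of all genes, and below both for Nhp2 and Wdr12, against 33.0%. It lay above the baseline mean for 39 genes, against 57.0% of all genes; the exceptions were Wdr12, Nop56 and Nhp2, while Bop1 and Npm1 turned below it after quantile normalization, Nop56 and Nhp2 above it with centred arrays, and Wdr12 above it with its other row.

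A difference of at least 1.5-fold at 2 h was seen in 7 genes, against 6.96% of all genes, and none was lower by as much, against 1.36%. These were Tsr1, Rcl1 and Nol10 of the small subunit, Gar1 and Nop58 of the snoRNPs, and Rrs1 and Pes1 of the large subunit. Tsr1 differed 2.18-fold (1.12, SE 0.25, adjusted p = 0.0938), Rcl1 2.14-fold (1.10, SE 0.24, adjusted p = 0.0972) and Gar1 2.04-fold (1.03, SE 0.26, adjusted p = 0.157). Nol10 stood at 0.98 (SE 0.25), Nop58 at 0.91 (SE 0.25), Rrs1 at 0.87 (SE 0.30) and Pes1 at 0.66 (SE 0.30). The baseline 1 value of Rrs1 (7.11) lay below that array's median, so its difference rests in part on a dim value. After quantile normalization, and with arrays centred on their medians, Tsr1, Rcl1, Gar1, Nol10, Nop58 and Rrs1 were called higher (3.1% of all genes after quantile normalization), with limma adjusted p from 0.00257 for Tsr1 to 0.0351 for Rrs1 in the former.

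The 2 baseline arrays also differed from each other in these genes. Baseline 2 was above baseline 1 in 36 of the 42 genes, against 67.5% of all genes, with a median gap of 0.20 across the list and 0.10 over all genes, and 10 genes had a gap of more than 0.5 in size. Among the 7 genes named for 2 h the gap lay between 0.46 for Rcl1 and 0.76 for Rrs1. With baseline 2 alone as the reference 5 genes were at least 1.5-fold higher at 2 h, and with baseline 1 alone 15 were. The share of all genes was not counted for these references, so the counts have no background. The list's median at 2 h was 0.25 without baseline replicate 1 and 0.45 without baseline replicate 2. That of all genes was -0.002 and 0.12.

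The array at 8 h was set against the array at 2 h, 1 array each, with the spread taken from the baseline arrays. Of the 42 genes 32 were lower at 8 h and none was higher, against 10.8% of all genes called lower and 1.46% higher. All 42 lay lower at 8 h, against 67.9% of all genes, although after quantile normalization Wdr12 turned to 0.34 and Npm1 to 0.016. A difference of at least 1.5-fold was seen in 40, against 26.7% of all genes, and after quantile normalization 30 were called lower, against 12.3%. The median was -1.22, or -0.97 relative to the median gene. The largest differences were those of Nol10 (5.79-fold, -2.53, SE 0.29, adjusted p = 0.00790), whose 8 h value was dim, Nop58 (5.17-fold, -2.37, SE 0.29) and Tsr1 (5.14-fold, -2.36, SE 0.28). The 10 that did not pass were Nop56, Fbl, Polr1c, Ddx10, Nob1, Imp4, Wdr12, Ddx56, Ncl and Npm1. The comparisons share arrays, so they do not check each other.

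Further genes of the pathway were taken from a list of 121 symbols, also chosen with earlier results of these data known. Of these symbols 110 were tested. At 8 h 10 of these fell and none rose (9.09% fell, against 3.35% of all genes), with a median of -0.52. Naf1, an assembly factor of box H/ACA particles, had the largest fall of that list (-2.17, SE 0.21, adjusted p = 0.00166), from 9.62 and 9.48 at baseline and 9.65 at 2 h to 7.38 at 8 h. The 8 h value of Naf1 lay below the median of the 8 h array, so the size of its fall rests on a dim value. Gtpbp4 (-1.42, SE 0.21) and Mdn1 (-1.26, SE 0.22), a GTPase and an ATPase of large subunit assembly, followed. After quantile normalization 24 were called lower, against 8.42% of all genes, and 1 higher, against 6.22%. None was called at 2 h on the deposited scale, against 1.09% of all genes called higher and 0.00935% lower, and the median was 0.36. At an unadjusted p under 0.05 (limma) 23 were higher and none lower, against 1001 and 297 of all 10699 genes. After quantile normalization 2 were called higher at 2 h, against 3.1% of all genes. On the deposited scale 46 were lower at 8 h against 2 h (41.8%, against 10.8% of all genes) and none was higher.

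The ribosomal proteins are the products that these factors assemble. Of 58 cytosolic ribosomal protein genes tested 1 fell, Rpl12 (-1.10, SE 0.23, adjusted p = 0.0410), and none rose; the share that fell was 1.72%, against 3.35% of all genes. Their median at 8 h was -0.05, or 0.115 relative to the median gene, and -0.03 relative to it after quantile normalization. At 2 h it was 0.19 with none called, against 1.09% of all genes called higher and 0.00935% lower. At an unadjusted p under 0.05 (limma) 2 were higher and none lower, against 1001 and 297 of all 10699 genes. Whether the lists differ from each other was not tested.

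**Figure D3:**
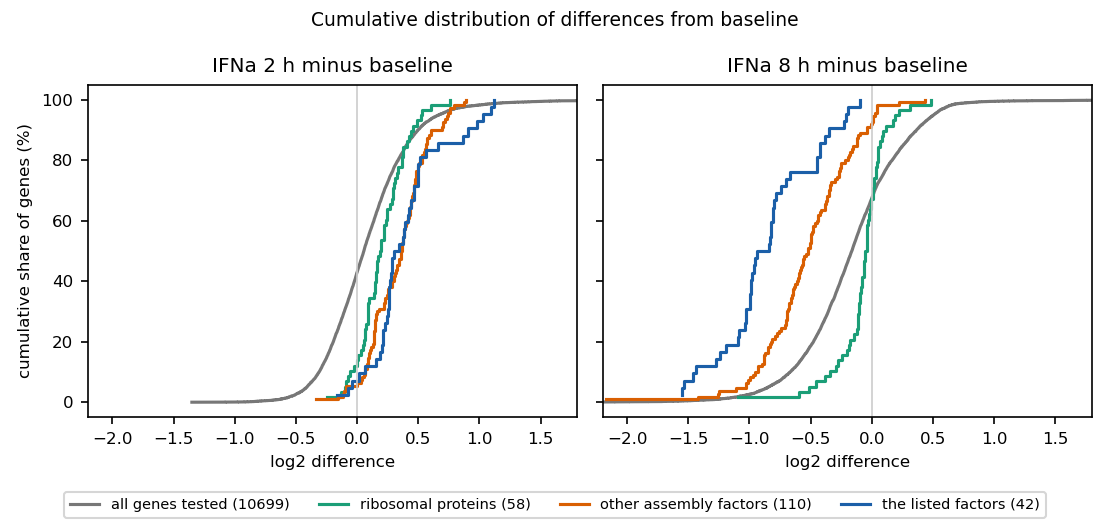
Cumulative share of genes (%) against the log2 difference from baseline at 2 h and at 8 h, for all 10699 genes tested, 58 ribosomal protein genes, 110 further assembly factors and the 42 listed factors. At 8 h the medians are -0.16, -0.05, -0.52 and -0.89 in that order.

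Fbl, Ddx18 and Wdr12 were each measured by 2 rows, and in each case the row with the higher mean, which was used, did not sit among rows of the gene's own chromosome. Rows of this array run in chromosome order: for the other 39 genes most of the 20 neighbouring rows named genes of the member's own chromosome. The row used for Fbl, a gene of chromosome 7, had 17 of 20 neighbours on chromosome 17, that for Ddx18, of chromosome 1, had 17 of 20 on chromosome 6, and that for Wdr12, also of chromosome 1, had 18 of 20 on chromosome 7.

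The rows among neighbours of the own chromosome gave other values, in an analysis chosen after seeing the data. For Ddx18, a helicase of large subunit assembly, the row used stood at 9.96 and 10.16 at baseline, 10.47 after 2 h and 9.03 after 8 h and fell by 1.03 (SE 0.21, adjusted p = 0.0379). The other row stood at 9.19 and 9.41 at baseline, 9.74 after 2 h and 9.29 after 8 h, a difference of -0.01 (adjusted p = 0.982). The fall of Ddx18 thus rests on 1 of its rows. For Fbl the other row gave 0.81 at 2 h and -0.04 at 8 h, with baseline arrays at 8.71 and 9.76, and for Wdr12 it gave 0.0085 and -0.10. The 8 h values of the other rows of Fbl (9.19) and Ddx18 (9.29) lay between the baseline arrays, and that of Wdr12 lay below both. With these rows 17 of the 42 genes fell at 8 h, against 3.33% of all genes.

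**Figure D4:**
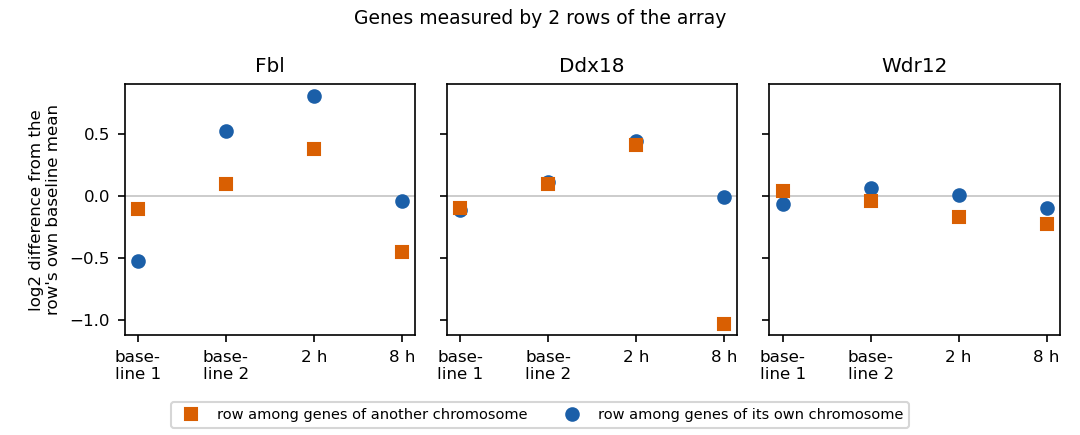
Log2 difference of each array from the row's own baseline mean, for the 3 genes with 2 rows (1 point per array and row). At 8 h the rows of Ddx18 lie at -1.03 and -0.01 and those of Fbl at -0.45 and -0.04.

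**Figure D5:**
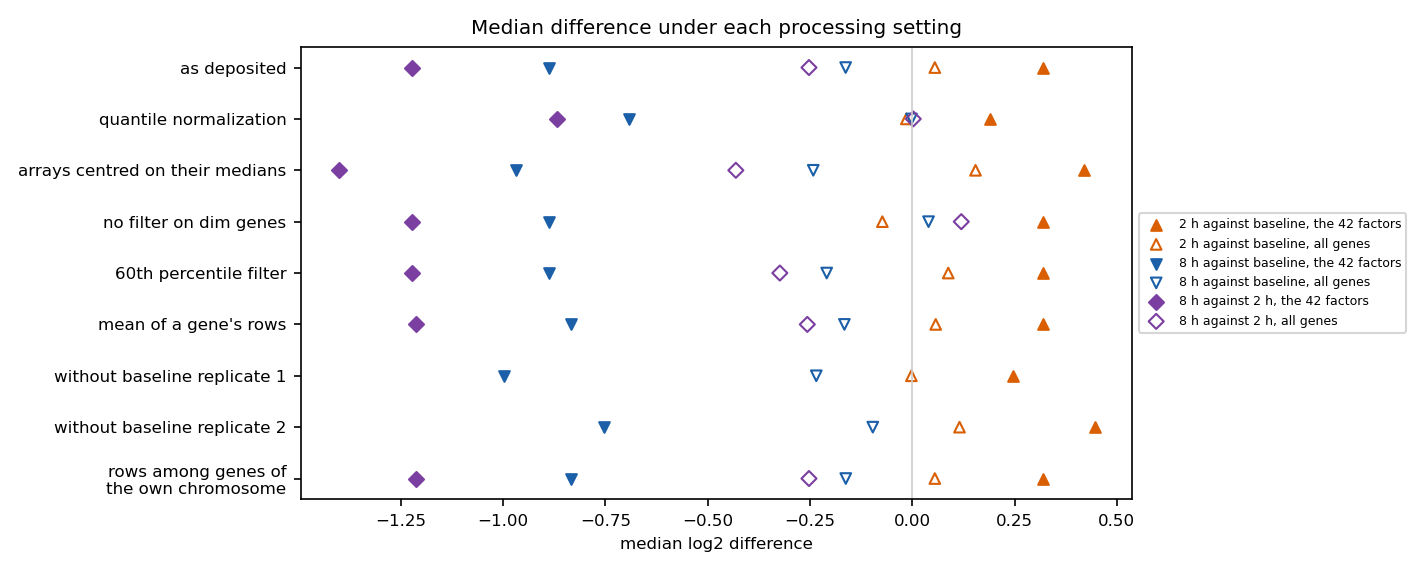
Median log2 difference of the 42 genes (filled) and of all genes tested (open) under each processing setting, for the 3 comparisons. At 8 h the median of the 42 genes stays between -0.998 and -0.69, and at 2 h between 0.19 and 0.45.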

How the data were processed

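RNA of 4 samples was hybridised to Affymetrix Mouse Gene 1.0 ST arrays, 1 sample each. The deposited values are linear intensity, computed by the authors with the RMA method in Affymetrix Power Tools (no version stated), per the submitters' processing notes. Whether all arrays entered 1 RMA run is not stated there. RMA keeps some unspecific signal, so folds of dim genes are understated. Log2 was taken here with no pseudocount.

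Of 24922 rows, 21425 had 1 symbol in the platform annotation, 1399 several and 2098 none; the latter kinds were left out. Where several rows named a gene, the brightest on average was used. A gene was tested if it exceeded the median of an array on any of the 4 (10699 did; 9053 were dim). Limma 3.58.1 in R 4.3.3 fitted a mean per group to all 4 arrays, with empirical Bayes moderation and Benjamini-Hochberg adjustment over all genes, two-sided, at an adjusted p under 0.05. There was 1 residual degree of freedom (prior 7.46, prior SD 0.175), and each single IFNa array was taken to vary as the baseline arrays do. The script was tested on simulated data.

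All members were to be named, with up to 3 called genes per direction of the further factors and 4 fixed genes. Members, roles and lists were chosen with earlier results of these data known. Alternatives were quantile normalization, centred arrays, other filters, the mean of a gene's rows, other variance priors and leaving out a baseline array. Names, chromosomes and start windows came from RefSeq tables of GRCm38.p6; the build behind the array rows is not stated, so no row has coordinates.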

Additional observations from a re-analysis of the deposited data

Results flagged for a closer look

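For 32 genes the IFNa difference from baseline was not the same at 2 h and at 8 h, by the test of that difference itself (8 h minus 2 h, log2 scale, limma, adjusted p from 0.00790 to 0.0460, 1 array against 1). All of them were lower at 8 h, where 10.8% of all genes were called lower. Among snoRNP proteins these were Nop58 (-2.37), Gar1 (-1.45), Dkc1 (-1.16) and Nhp2 (-0.91), and among subunits of RNA polymerase I Polr1b (-1.66) and Polr1a (-1.16). Among small subunit factors the largest differences were those of Nol10 (-2.53), Tsr1 (-2.36), Rcl1 (-2.29), Wdr43 (-1.53) and Bysl (-1.49), followed by Rrp9 (-1.45), Wdr75 (-1.37), Heatr1 (-1.32) and Ltv1 (-1.25), with Nop14 (-1.22), Noc4l (-1.20), Utp20 (-1.12) and Rrp12 (-0.98) at the lower end. Among large subunit factors they were Gnl3 (-1.84), Rrp1b (-1.79), Rrs1 (-1.67), Ddx18 (-1.44) and Nop2 (-1.42), then Pes1 (-1.36), Noc3l (-1.22), Nop16 (-1.18), Gnl2 (-1.08) and Bop1 (-1.0004); that of Ddx18 became -0.46 with its other row. Of the scaffold and regulatory proteins Mybbp1a (-1.57), Nolc1 (-1.30) and Ddx21 (-1.09) differed. After quantile normalization Nhp2 (-0.48, adjusted p = 0.140) and Bop1 (-0.58, adjusted p = 0.0720) were no longer called. The 8 h values of Nol10 and Rrs1 lay below that array's median. Each time had 1 array, so no replicate of either time checks these values.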

How the results depend on the processing

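No paired analysis was made because the labels state no pairing of arrays and each IFNa time had 1 array. After quantile normalization the median of the list was -0.69 at 8 h (-0.87 for 8 h minus 2 h), and 6 genes were called higher at 2 h (3.1% of all genes). With arrays centred on their medians 6 were called higher at 2 h (2.72% of all genes) and 29 lower at 8 h (6.77%), and the median at 8 h against 2 h was -1.40. With no filter on dim genes (19752 tested) 4 were called lower at 8 h (0.511% of all genes) and 16 at 8 h against 2 h (2.0%), and with the 60th percentile filter (8607 tested) 10 were called lower at 8 h (2.36%); the cause was not tested. Leaving out a baseline array gave medians from 0.25 to 0.45 at 2 h and from -0.998 to -0.75 at 8 h, with no test since no residual degree of freedom was left. Signs turned in 8 genes, each in a comparison in which it had not been called. Without baseline replicate 1, Bop1 (-0.0256) and Ddx56 (-0.0954) turned at 2 h, and without baseline replicate 2, Nop56 (0.0431) and Npm1 (-0.0695) turned at 2 h and Polr1c (0.0371) and Nob1 (0.0412) at 8 h. At 2 h Bop1 (-0.0771) and Npm1 (-0.0753) turned after quantile normalization, Nop56 (0.0264) and Nhp2 (0.0579) with centred arrays, and Wdr12 (0.0085) with its other row. After quantile normalization Wdr12 turned at 8 h (0.023) and at 8 h against 2 h (0.34), as did Npm1 in the latter (0.016). The mean of a gene's rows ended the fall of Ddx18 (-0.52, adjusted p = 0.174). The trend prior called 20 genes lower at 8 h (3.44% of all genes) and the robust prior 18 (3.34%), with no call ended. The number of arrays sets the precision.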

Other observations

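Several of the listed genes hold small nucleolar RNA genes within their span. Such RNAs are often cut out of introns, but strand and intron position were not checked here. By RefSeq positions 7 of the 43 genes (16.3%) held at least 1 snoRNA gene, 19 in all, against 1.70% of protein-coding genes. These were Nop58, Nop56, Dkc1, Wdr43, Tsr1, Gnl3 and Ncl. Of the 19 snoRNAs 4 had a row of their own on the array. Snora75, a box H/ACA RNA inside Ncl, stood at 8.69 and 8.59 on the arrays without IFNa, 8.26 after 2 h and 6.93 after 8 h, and fell at 8 h (-1.71, SE 0.20, adjusted p = 0.00508, limma), while its host Ncl stood at -0.35 and Snord82, in the same host, at -0.08 (SE 0.22). Snord57, inside Nop56, stood at -0.13 (SE 0.24) and Snord53, inside Wdr43, at -0.36 (SE 0.25), and neither passed. The 8 h value of Snora75 lay below the median of the 8 h array, so the size of its fall rests on a dim value. At 8 h 3.35% of all genes tested were called lower. The 4 snoRNAs were looked at after the host genes had been examined, and the array's labelling was not designed for RNAs this short.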
